A study of Mus musculus with 9 samples.

Results

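The insulin-like growth factor (IGF) axis genes comprised 10 named genes: the ligands Igf1 and Igf2, the receptors Igf1r and Igf2r, and the binding proteins Igfbp2, Igfbp3, Igfbp4, Igfbp5, Igfbp6 and Igfbp7. They are listed by name, and no measured value enters the rule. All 10 were among the 21049 genes measured, and all 10 passed the filter on low values that left 15647 genes for testing. Their transcripts were followed in smooth muscle cells sorted by fluorescence from mouse lung, in 3 groups of 3 libraries made with SMART-Seq v4. BSMC were bronchial cells from mice called NVSMC-effector, with the genotype Chrm2/Acta2-CreER/R26-GFP. PASMC were pulmonary arterial cells from mice called ASMC-effector, with the genotype Cspg4/Acta2-CreER/R26-GFP. The total_SMC group was smooth muscle from the lung as a whole, including that of veins, from tg-Acta2-GFP mice. In these names Acta2 is joined to CreER in the first 2 lines and to GFP in the third, and R26-GFP stands only in the first 2. The names do not state what part Chrm2 or Cspg4 has in driving CreER. All 9 libraries are labelled as tamoxifen treated, and the protocol gives 0.75 mg per 10 g body weight for 3 days. Sex and age are not given in the labels used here. Cell population, mouse line and sort cannot be told apart in any comparison.

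IGF1 and IGF2 are secreted growth factors that act mainly through the receptor tyrosine kinase IGF1R, which signals through IRS adaptors to the PI3K, AKT and MAP kinase cascades. IGF2R has no kinase, binds IGF2 and mannose 6-phosphate-tagged lysosomal enzymes, and carries them to lysosomes. The secreted IGFBPs hold IGFs in the extracellular space and can block or prolong their action, and proteases such as PAPP-A cut them and free the ligand. In smooth muscle, IGF1 is known as a stimulus of growth, survival and matrix production.

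Values are normalized read counts per gene. Implied depth, the reads per library after dividing by the recovered library factor, ran from 6.39 to 10.02 M. A gene is called higher or lower at a Benjamini-Hochberg adjusted p under 0.05 in 1 limma fit over all tested genes and all 9 libraries. Fold changes are those of value + 1, on the log2 scale unless written as a fold, with the standard error (SE) or 95% confidence interval (CI) of the fit. Nothing in the labels ties a replicate to its own animal, and p-values therefore reflect only the spread among these samples, which may be technical. In bulk libraries, fewer cells of a type and less RNA per cell cannot be told apart. Several marker lists moved with the groups. The airway smooth muscle genes Hhip and Lgr6 were highest in the libraries labelled PASMC (means 7597 and 4528) and lower in those labelled BSMC (3161 and 2387), so groups are named below strictly by their labels. Chrm2, named in the BSMC line, was 0.98 higher in PASMC than in BSMC (limma adjusted p = 0.0433). That call was lost without BSMC replicate 1 (0.108) or 3 (0.126), among others. Cspg4, named in the PASMC line, was not called between them (0.40, limma adjusted p = 0.268). Neither were Aoc3 (0.25, 0.219) and Ntrk3 (0.03, 0.849). The 12 vascular smooth muscle markers summed to 2289 to 2442 counts per M (CPM) in BSMC, 2627 to 2690 in PASMC and 2071 to 2183 in total_SMC, and 5 were higher and 1 lower in PASMC than in BSMC. Of all tested genes, 13.2% were called higher and 8.88% lower in that comparison. Acta2 and Myh11 were abundant in all 9 libraries, with group means of 3017 to 3948 and 10536 to 11958. The 18 leukocyte markers summed to 1402 to 2118 CPM in BSMC, 306 to 327 in PASMC and 384 to 487 in total_SMC, and Marco, Mrc1, Ptprc, Cd3e and Adgre1 were at 0 in all PASMC libraries. BSMC replicate 2 stood apart from its group: its chi-square per gene against the other BSMC libraries was 24.1 and 30.3, and without it the genes called between PASMC and BSMC rose from 3451 to 6364.

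The promoters of 4 members are printed because these genes form the pairs that differed in opposite directions in the results below. Each is the 250 bases before the RefSeq start in GRCm38.p6, 5′ to 3′ on the gene's own strand. That build differs from the mm39 of the deposited table. Capitals mark matches on either strand to the CCAAT box (CCAAT, here also as ATTGG) or the GC box GGGCGG, and TATAAA and the serum response factor motif known as the CArG box were searched too.
Igf1 promoter, chr10:87860861-87861110, + strand: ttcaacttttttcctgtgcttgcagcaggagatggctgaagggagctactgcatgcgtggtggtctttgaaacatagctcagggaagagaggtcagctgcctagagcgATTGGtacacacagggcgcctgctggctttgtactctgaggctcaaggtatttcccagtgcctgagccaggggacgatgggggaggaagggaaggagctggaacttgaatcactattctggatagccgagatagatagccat
Igf1r promoter, chr7:67952007-67952256, + strand: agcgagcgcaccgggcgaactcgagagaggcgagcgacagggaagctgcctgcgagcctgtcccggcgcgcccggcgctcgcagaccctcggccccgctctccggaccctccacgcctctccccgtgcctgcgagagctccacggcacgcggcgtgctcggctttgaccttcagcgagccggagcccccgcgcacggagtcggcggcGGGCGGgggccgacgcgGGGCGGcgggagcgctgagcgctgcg
Igfbp2 promoter, chr1:72824230-72824479, + strand: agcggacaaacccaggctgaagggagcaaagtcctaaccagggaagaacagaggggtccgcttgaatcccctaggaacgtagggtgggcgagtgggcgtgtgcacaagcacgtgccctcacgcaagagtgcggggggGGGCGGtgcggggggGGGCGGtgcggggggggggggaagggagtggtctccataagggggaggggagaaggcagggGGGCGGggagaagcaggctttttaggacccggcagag
Igfbp5 promoter, chr1:72874866-72875115, - strand: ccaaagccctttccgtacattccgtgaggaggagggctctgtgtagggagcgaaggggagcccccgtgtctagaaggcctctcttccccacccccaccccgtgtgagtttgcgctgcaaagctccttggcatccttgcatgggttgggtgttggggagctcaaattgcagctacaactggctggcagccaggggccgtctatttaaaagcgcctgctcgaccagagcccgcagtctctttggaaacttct
The Igf1 window held 1 CCAAT match and no GC box, and its GC content was 52.8%. The Igf1r window held 2 GC boxes at a GC content of 77.6%. The Igfbp2 window, the upstream of its 2 RefSeq starts, held 3 GC boxes at 67.2% GC, while the Igfbp5 window at 58.8% GC held none of the 4 motifs. Among 32851 promoter windows of the same length, 33.8% held CCAAT, 32.7% held GGGCGG, 12.4% held TATAAA and 1.47% held a CArG box. All 10 members matched the RefSeq table, with 14 windows in all.

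Igf1, the main IGF ligand made by mesenchymal cells, had the largest called rise of the members. The gene (ENSMUSG00000020053) lies at chr10:87694127-87772904 on the + strand of mm39. Its normalized counts were 981, 760 and 906 in BSMC replicates 1 to 3, 1142, 1139 and 1047 in PASMC, and 2697, 2936 and 2500 in total_SMC. Each total_SMC library exceeded every other library, and the PASMC libraries also lay above all BSMC libraries. Igf1 was 3.08-fold higher in total_SMC than in BSMC (log2 1.62, SE 0.13, limma adjusted p = 3.94e-06). It was 2.44-fold higher in total_SMC than in PASMC (log2 1.29, SE 0.13, limma adjusted p = 5.83e-05). The difference between PASMC and BSMC was 0.34 (95% CI 0.06 to 0.62) and was not called (limma adjusted p = 0.0758), except with implied reads, the values before library scaling (0.55, 0.0471).

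Igf2, the fetal growth ligand whose gene is imprinted, was the lowest member in every group. Its counts were 27, 10 and 10 in BSMC, 10, 10 and 19 in PASMC, and 4, 5 and 2 in total_SMC, so all 3 total_SMC values lay below the rest. Igf2 reached the filter value of 10 only in BSMC and PASMC. A lower call in total_SMC therefore does not stand apart from the filter that let Igf2 be tested. The call against BSMC (log2 -1.74, limma adjusted p = 0.0333) was lost without BSMC replicate 1 (0.127) or without total_SMC replicate 1 (0.0697), 2 (0.0507) or 3 (0.127). The difference from PASMC was -1.58 (95% CI -2.87 to -0.30, limma adjusted p = 0.0959), not called here but called under quantile normalization (-2.48, 0.0101), with array weights (-1.75, 0.0101) and with only the 2 groups compared (0.0425). Igf2 (ENSMUSG00000048583) lies at chr7:142204503-142220553, - strand.

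Igf1r, the signalling receptor for both ligands, went the opposite way to Igf1. The gene (ENSMUSG00000005533) lies at chr7:67602575-67883416, + strand. Its counts were 864, 723 and 733 in BSMC, 664, 668 and 790 in PASMC, and 285, 377 and 333 in total_SMC. BSMC and PASMC overlapped, and all total_SMC libraries lay below both. Igf1r was 2.33-fold lower in total_SMC than in BSMC (log2 -1.22, SE 0.16, limma adjusted p = 0.000127) and 2.14-fold lower than in PASMC (log2 -1.09, SE 0.16, limma adjusted p = 0.000626). Between PASMC and BSMC it differed by -0.13 (95% CI -0.47 to 0.22).

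Igf2r, the clearance receptor for IGF2 and sorting receptor for lysosomal enzymes, moved with Igf1. The gene (ENSMUSG00000023830) lies at chr17:12901293-12988551, - strand. Counts were 436, 391 and 484 in BSMC, 714, 430 and 654 in PASMC, and 975, 1200 and 1011 in total_SMC. Total_SMC lay above all other libraries, and PASMC replicate 2 fell inside the BSMC range. The total_SMC level was 2.43-fold that of BSMC (log2 1.28, SE 0.19, limma adjusted p = 0.000385) and 1.80-fold that of PASMC (log2 0.85, SE 0.19, limma adjusted p = 0.0103). The call against PASMC was lost without total_SMC replicate 2 (0.0579). Between PASMC and BSMC the difference of 0.43 was not called (95% CI 0.00 to 0.85, limma adjusted p = 0.124), but was called without PASMC replicate 2 (0.65, limma adjusted p = 0.0327).

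**Figure D1:**
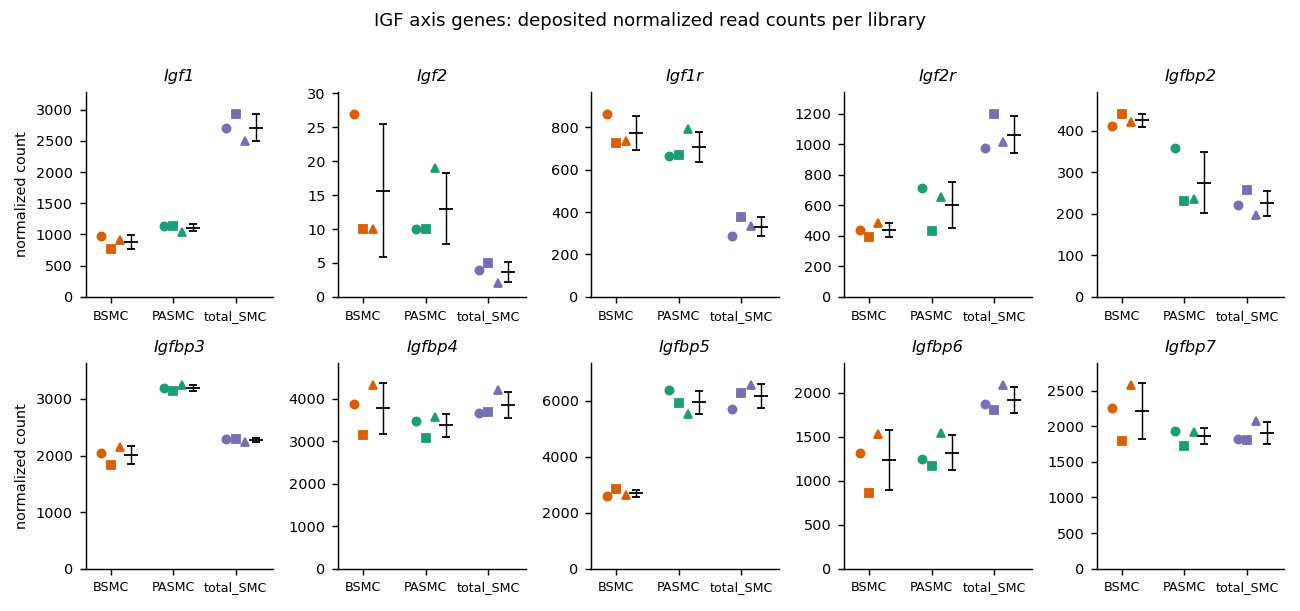
Deposited normalized read counts of the 10 IGF axis genes (y axis, one linear scale per gene) in the 9 libraries; circles, squares and triangles are replicates 1, 2 and 3 and bars show the group mean ± SD (n = 3). Igf1 and Igf2r are highest and Igf1r lowest in the total_SMC libraries, Igfbp3 peaks in PASMC, and Igfbp5 is lowest in BSMC.

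The members were also compared with Igf1r within each library, from levels per kb of exon. The Igf1 level was 1.92, 1.78 and 2.096 times that of Igf1r in BSMC, 2.92, 2.89 and 2.25 times in PASMC, and 16.0, 13.2 and 12.7 times in total_SMC. No total_SMC library came near the others in this ratio, which does not depend on the library scaling. The Igf2r level relative to Igf1r was 0.910, 0.976 and 1.19 in BSMC, 1.94, 1.16 and 1.49 in PASMC, and 6.17, 5.74 and 5.48 in total_SMC. Thus the transcripts of Igf2r and Igf1r had similar levels per kb of exon in BSMC, while the total_SMC libraries held far more of the Igf2r transcript. With the longest transcript as the length, Igf1r (mean 67.8) lay above Igf2r (49.2) in BSMC without overlap. In total_SMC, Igf2r (119.5) still lay above Igf1r (29.1) with that length.

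The binding proteins split into 3 that differed between BSMC and PASMC and 3 that were not called there. Igfbp5, a matrix-bound IGFBP that is a substrate of PAPP-A and PAPP-A2, had the largest difference. Its counts were 2589, 2840 and 2639 in BSMC, 6379, 5945 and 5534 in PASMC, and 5717, 6293 and 6565 in total_SMC. Every BSMC library was below every other library, and the PASMC and total_SMC ranges overlapped. Igfbp5 was 2.21-fold higher in PASMC (log2 1.14, SE 0.10, limma adjusted p = 1.44e-05) and 2.30-fold higher in total_SMC (log2 1.20, SE 0.10, limma adjusted p = 4.80e-06) than in BSMC. Total_SMC and PASMC differed by 0.06 (95% CI -0.16 to 0.27). Igfbp5 (ENSMUSG00000026185) lies at chr1:72897091-72914043, - strand.

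Igfbp2, another secreted IGF carrier, lies next to Igfbp5 at chr1:72863662-72891633 on the + strand (ENSMUSG00000039323), with the 3′ ends facing across 5457 bp and no other gene of the table between them. Its counts ran opposite to those of its neighbour: 413, 442 and 422 in BSMC, 360, 232 and 235 in PASMC, and 221, 258 and 198 in total_SMC. All BSMC libraries lay above the rest. It was 1.89-fold lower in total_SMC than in BSMC (log2 -0.92, SE 0.20, limma adjusted p = 0.00401). In that comparison 17 of 17 leukocyte markers were lower as well, beside 18.2% of all tested genes. The part of leukocytes in the Igfbp2 difference was not tested. The difference of PASMC from BSMC was smaller (log2 -0.66, 95% CI -1.10 to -0.21, limma adjusted p = 0.0387) and its call was lost when any 1 of 7 libraries was left out: BSMC replicate 1 (0.0820) or 3 (0.0725), PASMC replicate 2 (0.142) or 3 (0.106), and each of the total_SMC replicates 1 (0.0564), 2 (0.0506) and 3 (0.0554). Total_SMC and PASMC differed by -0.26 (95% CI -0.71 to 0.18). The Igfbp5 level per kb was 1.93, 1.98 and 1.92 times the Igfbp2 level in BSMC, 5.45, 7.88 and 7.24 times in PASMC, and 7.96, 7.50 and 10.2 times in total_SMC. This ratio varied little among BSMC libraries and did not overlap between BSMC and the other groups.

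Igfbp3, the main circulating IGF carrier, set PASMC apart from both other groups. Its counts were 2045, 1835 and 2150 in BSMC, 3192, 3147 and 3244 in PASMC, and 2298, 2290 and 2240 in total_SMC. The PASMC libraries lay above all others, and total_SMC lay narrowly above BSMC. Igfbp3 was 1.59-fold higher in PASMC than in BSMC (log2 0.67, SE 0.10, limma adjusted p = 0.000659) and 1.40-fold lower in total_SMC than in PASMC (log2 -0.49, SE 0.10, limma adjusted p = 0.00513). Total_SMC and BSMC differed by 0.18 (95% CI -0.03 to 0.40, limma adjusted p = 0.155). Both calls held under all 19 alternatives. The summed airway markers were also highest in PASMC: the 12 came to 1684 to 1899 CPM in BSMC, 2653 to 2721 in PASMC and 1837 to 2122 in total_SMC, and none was at 0 in a whole group. Gene by gene, 6 of 11 tested were higher and 0 lower in PASMC than in BSMC, beside 13.2% and 8.88% of all tested genes. In total_SMC against PASMC, 4 were higher and 4 lower, beside 9.39% and 6.83%. The part of airway muscle cells in the Igfbp3 differences was not tested. Igfbp3 (ENSMUSG00000020427) lies at chr11:7156086-7163923, - strand.

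Igfbp6, which prefers IGF2 over IGF1, was highest in total_SMC. Its counts were 1320, 865 and 1536 in BSMC, 1251, 1163 and 1543 in PASMC, and 1869, 1807 and 2087 in total_SMC, with BSMC and PASMC overlapping and total_SMC above both. The difference from BSMC was 1.59-fold (log2 0.67, SE 0.19, limma adjusted p = 0.0174), a call lost without total_SMC replicate 3 (0.0689). The difference from PASMC, 0.55 (95% CI 0.13 to 0.97, limma adjusted p = 0.0800), was called without BSMC replicate 2 (0.00900) or 3 (0.0348). PASMC and BSMC differed by 0.12 (95% CI -0.31 to 0.54). Igfbp6 (ENSMUSG00000023046) lies at chr15:102052797-102057946, + strand.

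Igfbp4, an inhibitory IGFBP and the classic PAPP-A substrate, was called in no comparison. The counts of Igfbp4 were 3867, 3137 and 4320 in BSMC, 3473, 3067 and 3576 in PASMC, and 3664, 3678 and 4204 in total_SMC. The total_SMC libraries lay above those of PASMC, and BSMC overlapped both. Its differences were -0.15 for PASMC against BSMC (95% CI -0.43 to 0.13), 0.19 for total_SMC against PASMC (95% CI -0.09 to 0.47) and 0.04 for total_SMC against BSMC (95% CI -0.24 to 0.32). Igfbp7, a secreted matrix protein that binds IGFs weakly, was not called either. Its counts were 2260, 1798 and 2579 in BSMC, 1928, 1731 and 1921 in PASMC, and 1829, 1815 and 2082 in total_SMC, and all 3 groups overlapped. Its differences were -0.24 for PASMC against BSMC (95% CI -0.54 to 0.07), 0.04 for total_SMC against PASMC (95% CI -0.27 to 0.34) and -0.20 for total_SMC against BSMC (95% CI -0.50 to 0.10). Without BSMC replicate 2, Igfbp7 was called lower in PASMC (limma adjusted p = 0.0196) and in total_SMC (0.0244) than in BSMC. Igfbp4 (ENSMUSG00000017493) lies at chr11:98932070-98945218, + strand, and Igfbp7 (ENSMUSG00000036256) at chr5:77497087-77555888, - strand.

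**Figure D2:**
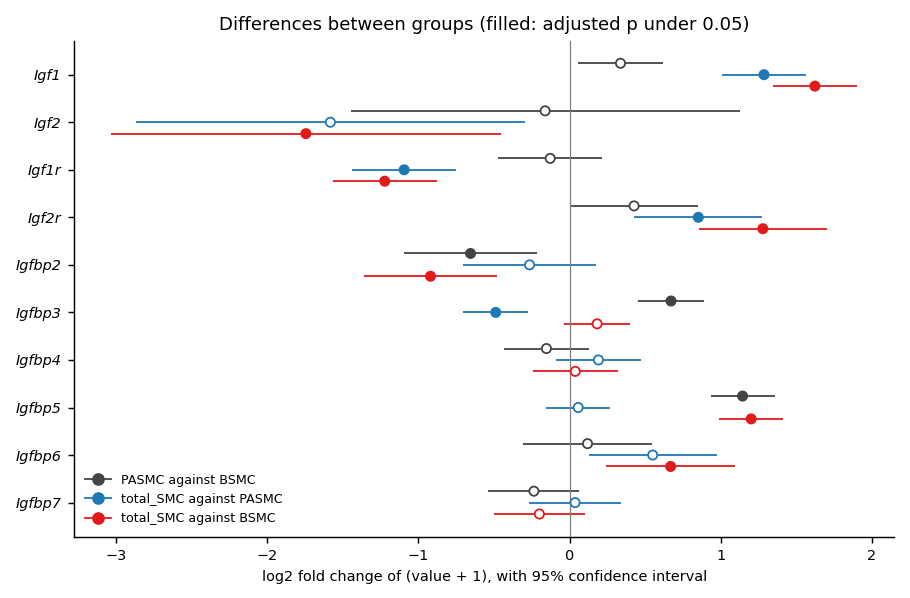
Log2 fold change of value + 1 (x axis) for each IGF axis gene (y axis) in the 3 comparisons, with the 95% confidence interval of the limma fit; filled points are called at an adjusted p under 0.05. Igf1 and Igf2r lie to the right and Igf1r to the left in both total_SMC comparisons, and Igfbp5 lies to the right in both comparisons with BSMC.

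Counted over the members, PASMC against BSMC gave 2 higher and 1 lower of 10, where 13.2% and 8.88% of all tested genes were called in those directions. Groups did not overlap for 4 members, against 35.2% of all tested genes. For total_SMC against PASMC, 2 were higher and 2 lower, beside 9.39% and 6.83% of all genes, and 7 did not overlap, beside 40.5%. For total_SMC against BSMC, 4 were higher and 3 lower, beside 23.7% and 18.2%, and 8 did not overlap, beside 50.5%. Igf2 is among these 3 lower members and among the 7 and 8 without overlap, with the limit of the filter given for it above. The median log2 change of the members was -0.0049, 0.0465 and 0.110 in these comparisons, against 0.0471, 0.0257 and 0.0456 over all tested genes. The median absolute change was 0.287 for the members and 0.443 for all genes in the first, 0.519 and 0.313 in the second, and 1.06 and 0.585 in the third. The 3 comparisons share groups and are set side by side only.

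Igfbp7 and Igfbp6 showed a limit in how far their counts can be read. Igfbp7 had 1959.9 to 2022 implied reads in every one of the 9 libraries, although depth ranged from 6.39 to 10.02 M. The variance of its implied reads over their mean was 0.0148 in BSMC, 0.327 in PASMC and 0.189 in total_SMC, below the value near 1 that counting alone gives. Its reads came to 1.62 to 1.67 per exonic base, at the 99.9th percentile of tested genes. A gene with the same number of implied reads everywhere would show log2 differences of -0.22, 0.03 and -0.18 in the 3 comparisons after scaling, close to the -0.24, 0.04 and -0.20 of Igfbp7.

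Igfbp6 varied freely in BSMC and PASMC, with 968 to 1607 implied reads and a variance over mean of 15 and 21.9. In total_SMC it had 2034, 2005 and 1980 implied reads, a variance over mean of 0.364 and up to 1.83 reads per exonic base. Igfbp4 lay between, at 3377 to 4080 implied reads and a variance over mean of 1.30, 3.09 and 0.716, while Igfbp5 gave 135, 51.2 and 29.5. Over all tested genes the median variance over mean was 24.6 at 0.2 to 0.4 reads per base and 1.98 in the 28 genes at 1.5 or more. The part of read density in the Igfbp6 and Igfbp7 differences was not tested.

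**Figure D3:**
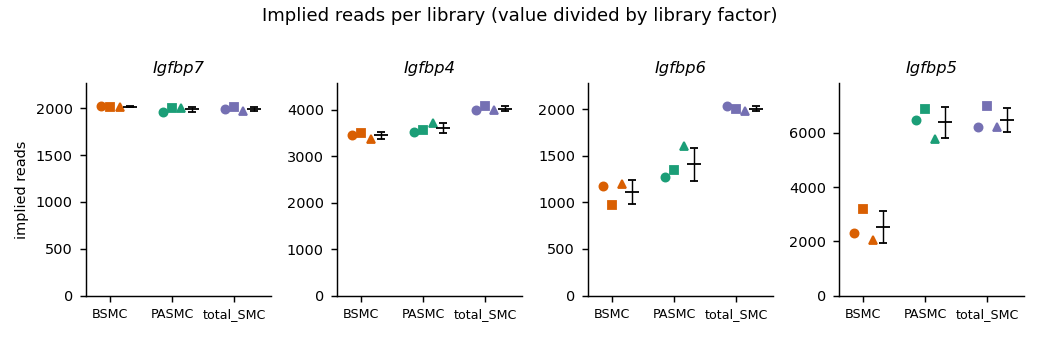
Implied reads (value divided by the library factor, y axis from 0) of 4 binding protein genes in the 9 libraries; marker shapes are replicates 1 to 3 and bars show the group mean ± SD (n = 3). Igfbp7 stays at 1959.9 to 2022 in every library, and Igfbp6 comes to 1980 to 2034 in total_SMC, while Igfbp5 varies freely.

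Compared between genes per kb of exon, the binding proteins exceeded the ligands and receptors in every group mean, except that Igf1 exceeded Igfbp2 in total_SMC. In BSMC the mean levels per kb were 1830 for Igfbp7, 1115 for Igfbp6, 855 for Igfbp4, 642 for Igfbp3, 448 for Igfbp5, 230.5 for Igfbp2, 89.1 for Igf1, 46.9 for Igf2r, 46.1 for Igf1r and 2.74 for Igf2. In that order the libraries of Igfbp6 and Igfbp4 overlapped, as did those of Igf2r and Igf1r. The PASMC order moved Igfbp3 (1021) and Igfbp5 (991) above Igfbp4 (764), with the libraries of Igfbp3 and Igfbp5 overlapping, and left Igf2r (64.4) and Igf1r (42.1) overlapping. In total_SMC, Igfbp6 (1728) and Igfbp7 (1579) overlapped at the top, Igfbp5 (1031) and Igfbp4 (872) overlapped, and Igf1 (274) exceeded Igfbp2 (122). Igf2r (114) overlapped Igfbp2 there, and Igf1r (19.8) and Igf2 (0.641) came last. With the longest transcript as the length, Igf1r came above Igf2r in BSMC and Igfbp3 above Igfbp6 in PASMC. The places of Igfbp7 in every group, and of Igfbp6 in total_SMC, carry the limit of their implied reads given above.

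The makeup of the binding protein pool differed accordingly. Igfbp5 made up 8.23%, 11.1% and 7.51% of the summed IGFBP level per kb in BSMC, 18.4%, 18.7% and 15.7% in PASMC, and 16.3%, 17.8% and 16.9% in total_SMC, with BSMC below both others. Igfbp3 made up 12.5%, 13.7% and 11.7% in BSMC, 17.6%, 19% and 17.7% in PASMC, and 12.6%, 12.4% and 11.1% in total_SMC. Relative to the ligand, the Igfbp3 level was 6.60, 7.64 and 7.51 times that of Igf1 in BSMC, 8.84, 8.74 and 9.80 times in PASMC, and 2.696, 2.47 and 2.84 times in total_SMC. Each group held its own range of this ratio, with total_SMC lowest. These shares include Igfbp6 and Igfbp7, with the low spread of implied reads given above.

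**Figure D4:**
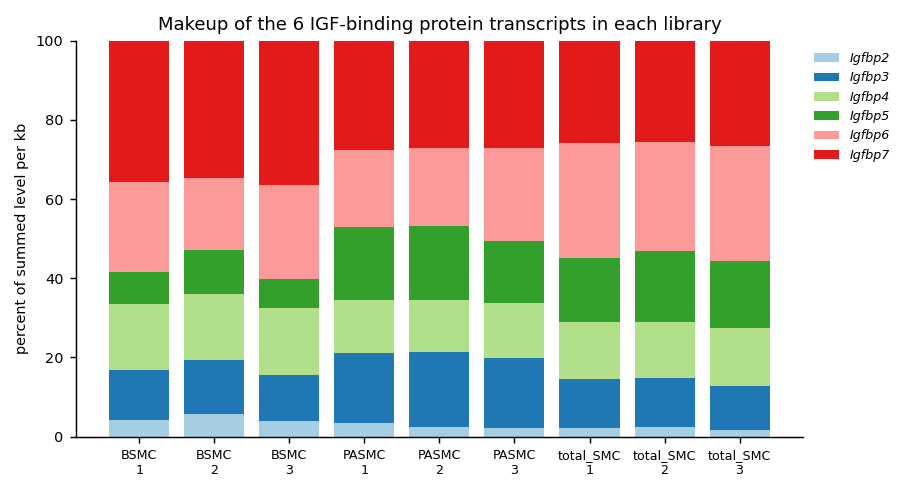
Share of the summed level per kb of the 6 IGF-binding protein transcripts (y axis, percent) in each of the 9 libraries (x axis). Igfbp5 takes 7.51 to 11.1% in BSMC and 15.7 to 18.7% in PASMC, and Igfbp3 takes 17.6 to 19% in PASMC.

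The proteases that cut IGFBPs, with their inhibitors, were called more often higher than lower in each comparison. Of 22 tested, 7 were higher and 2 lower in PASMC than in BSMC, 12 higher and 2 lower in total_SMC than in BSMC, and 10 higher and 1 lower in total_SMC than in PASMC. Of all tested genes, 13.2% were called higher and 8.88% lower in the first of these, 23.7% and 18.2% in the second, and 9.39% and 6.83% in the third. The median log2 differences of the list were 0.321, 1.08 and 0.311. In total_SMC against BSMC, 9 of 15 fibroblast and 8 of 9 mesothelial markers were also higher, and their part in the protease differences was not tested. The last count of 11 fell to 7 without PASMC replicate 2, 7 without PASMC replicate 3 and 6 without total_SMC replicate 3. Pappa, which encodes PAPP-A and releases IGF from IGFBP4, had counts of 69, 76 and 67 in BSMC, 188, 197 and 210 in PASMC, and 337, 345 and 350 in total_SMC. The 3 groups were far apart and narrow, with log2 differences of 1.48 (PASMC against BSMC, limma adjusted p = 0.000171), 2.27 (total_SMC against BSMC, 4.17e-06) and 0.79 (total_SMC against PASMC, 0.0101). The last was lost without total_SMC replicate 3 (0.0590).

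Pappa2, which encodes the related protease that cuts IGFBP3 and IGFBP5, had counts of 48, 50 and 63 in BSMC, 347, 236 and 256 in PASMC, and 221, 198 and 158 in total_SMC. Its counts were highest in PASMC, by 2.35 over BSMC (limma adjusted p = 4.46e-05). The difference of total_SMC from PASMC, -0.53, was not called (limma adjusted p = 0.167), except with array weights (-0.66, 0.0183). Mmp3, a matrix metalloproteinase, had means of 610 ± 61.2 in BSMC, 1669 ± 261 in PASMC and 3116 ± 270 in total_SMC (SD, n = 3), rising by 1.44 in PASMC (limma adjusted p = 3.40e-05) and 2.35 in total_SMC (5.28e-07) over BSMC. Htra4, a serine protease with an IGFBP-like domain, had means of 177, 251 and 832, and was 2.23 higher in total_SMC than in BSMC (limma adjusted p = 2.78e-06). Timp1, an inhibitor of metalloproteinases, rose by 1.44 from PASMC to total_SMC (limma adjusted p = 0.00148). Mmp9 went the other way, at 514, 594 and 425 in BSMC against 18, 10 and 16 in PASMC and 22, 76 and 32 in total_SMC. Neutrophils and macrophages are known sources of MMP9. In PASMC against BSMC, 16 of 17 leukocyte markers were also lower, beside 8.88% of all tested genes. The part of these cells in the Mmp9 difference was not tested.

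Downstream of the receptor, 53 signalling genes were tested. Between total_SMC and BSMC, 23 were higher and 11 lower, with a median of 0.375, beside 23.7% and 18.2% of all tested genes. That count of 34 fell to 20 without total_SMC replicate 3 and to 22 with implied reads. Between PASMC and BSMC, 13 were higher and 1 lower (median 0.233), beside 13.2% and 8.88% of all tested genes. That count of 14 became 26 without BSMC replicate 2, 9 without BSMC replicate 1, 8 without PASMC replicate 1, and 9 without PASMC replicate 2 or 3. It became 8 with only the 2 groups compared. Between total_SMC and PASMC, 1 was higher and 3 lower (median -0.0184), beside 9.39% and 6.83%. That count of 4 rose to 7 without BSMC replicate 3, to 11 with only the 2 groups compared and to 12 with array weights.

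The 3 signalling genes lower in total_SMC than in PASMC were Grb14, Irs2 and Socs2, and all 3 were lower than in BSMC too. Grb14, an adaptor that inhibits insulin receptor signalling, had counts of 802, 871 and 716 in BSMC, 744, 774 and 672 in PASMC, and 205, 245 and 222 in total_SMC. It fell by 1.82 against BSMC (limma adjusted p = 4.80e-06) and by 1.70 against PASMC (2.36e-05), with no overlap. Irs2, a docking protein for both IGF1R and the insulin receptor, had means of 1140 in BSMC, 1416 in PASMC and 629 in total_SMC, and fell by 0.82 (limma adjusted p = 0.00617) and 1.18 (0.00147). Socs2, an inhibitor of growth hormone signalling, had means of 1918, 1673 and 985, and fell by 0.96 (limma adjusted p = 0.000108) and 0.77 (0.00109). Insr, the insulin receptor, had counts of 323, 227 and 409 in BSMC, 314, 257 and 396 in PASMC, and 152, 242 and 132 in total_SMC. Its calls in total_SMC (-0.87, limma adjusted p = 0.0281 against BSMC; -0.90, 0.0492 against PASMC) were both lost without BSMC replicate 1 (0.0700 and 0.0574) or without total_SMC replicate 1 (0.0860 and 0.160) or 3 (0.116 and 0.201). The first was also lost without BSMC replicate 3 (0.0904), and the second without PASMC replicate 1 (0.116), 2 (0.0604) or 3 (0.178). The second was lost too with no filter on low values (0.0513), and both with implied reads (0.0832 and 0.0575).

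Grb10, an imprinted adaptor that restrains IGF1R and insulin receptor signalling, had the opposite order to Grb14. Its counts were 561, 915 and 533 in BSMC, 1499, 1464 and 1140 in PASMC, and 1785, 1687 and 1826 in total_SMC. It was 1.06 higher in PASMC (limma adjusted p = 0.00280) and 1.44 higher in total_SMC (0.000188) than in BSMC. Pik3r3, a regulatory subunit of PI3K, was 1.48 higher in PASMC than in BSMC (limma adjusted p = 0.00145). Inppl1, a lipid phosphatase of that pathway, was 1.26 higher (0.000687), and Tsc2, an inhibitor of mTOR complex activity, was 1.10 higher (0.000318).

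**Figure D5:**
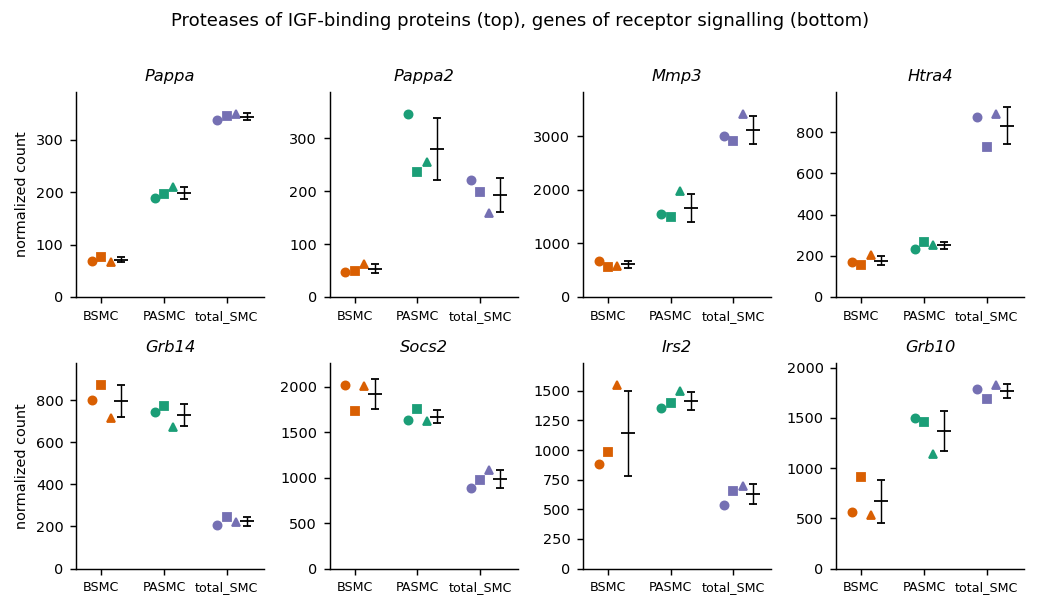
Normalized read counts (y axis, from 0, one scale per gene) of 4 proteases of IGF-binding proteins and 4 genes of receptor signalling in the 9 libraries; marker shapes are replicates 1 to 3 and bars show the group mean ± SD (n = 3). Pappa rises from 67 to 76 in BSMC to 337 to 350 in total_SMC, and Grb14 lies at 205 to 245 in total_SMC against 672 or more elsewhere.

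Inputs to Igf1 transcription and IGF mRNA binding gave 3 higher and 0 lower of 6 tested genes in PASMC against BSMC, 4 and 0 in total_SMC against BSMC, and 1 and 0 in total_SMC against PASMC (medians 0.945, 0.960 and 0.0709). The shares of all tested genes called higher were 13.2%, 23.7% and 9.39%, and those called lower were 8.88%, 18.2% and 6.83%. Stat5b, which activates Igf1 transcription below the growth hormone receptor, had counts of 581, 1175 and 638 in BSMC, 1629, 1458 and 1429 in PASMC, and 1456, 1430 and 1710 in total_SMC. It was 0.99 higher in PASMC (limma adjusted p = 0.00944) and 1.01 higher in total_SMC (0.00410) than in BSMC, and the PASMC and total_SMC libraries overlapped. Ghr, the growth hormone receptor, had means of 2201, 3068 and 3129 in BSMC, PASMC and total_SMC. Igf2bp2, an IGF2 mRNA-binding protein, had means of 51.7, 89.7 and 234, and was 2.26 higher in total_SMC than in BSMC (limma adjusted p = 0.000389). These counts changed when libraries were left out: from 3 to 6 without BSMC replicate 2, from 4 to 2 without total_SMC replicate 3, and from 1 to 0 without PASMC replicate 1 or 2, and likewise without replicate 1 or 2 of total_SMC.

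Among 22 genes for IGF2R cargo and its sorting, 4 were higher and 0 lower in PASMC than in BSMC, 6 and 0 in total_SMC than in BSMC, and 5 and 1 in total_SMC than in PASMC. Of all tested genes, 13.2%, 23.7% and 9.39% were called higher in these comparisons, so that the 6 in total_SMC against BSMC are near the share of all genes. The shares called lower were 8.88%, 18.2% and 6.83%. The medians of the list were -0.0075, 0.143 and 0.0699. Gaa, the lysosomal acid glucosidase delivered through IGF2R, had means of 2114, 2966 and 4459 in BSMC, PASMC and total_SMC, 1.09 higher in total_SMC than in BSMC (limma adjusted p = 0.000133). Gnptab, whose enzyme makes the mannose 6-phosphate tag, was 1.06 higher there (limma adjusted p = 0.00116), and Lamp2, a lysosomal membrane protein, 0.91 higher (0.000545). Sorl1, a sorting receptor, peaked in PASMC at 3601 against 1757 in BSMC and 1904 in total_SMC. Leaving out BSMC replicate 2 raised the first count to 14 and the second to 12, and without BSMC replicate 1, PASMC replicate 1 or PASMC replicate 2 the first fell to 2. The second became 10 when scaled to the library total and 12 under quantile normalization. The count of 6 in total_SMC against PASMC fell to 3 without PASMC replicate 1, PASMC replicate 2 or total_SMC replicate 1, and to 2 without total_SMC replicate 3.

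Of 16 tested imprinted growth genes, the class to which Igf2 and Igf2r belong, 3 were higher and 0 lower in PASMC than in BSMC, 3 and 2 in total_SMC than in BSMC, and 2 and 1 in total_SMC than in PASMC (medians -0.0848, 0.128 and 0.156). These are few genes, near the 13.2%, 23.7% and 9.39% of all tested genes called higher in the same comparisons. The shares called lower there were 8.88%, 18.2% and 6.83%. Peg3, a paternally expressed zinc finger gene, had counts of 259, 262 and 165 in BSMC, 530, 543 and 757 in PASMC, and 950, 1403 and 1355 in total_SMC, with differences from BSMC of 1.42 (limma adjusted p = 0.00125) and 2.44 (1.56e-05). The first count rose to 8 without BSMC replicate 2. The second fell from 5 to 3 without BSMC replicate 3 or any 1 total_SMC library, and the third from 3 to 1 without total_SMC replicate 2 or 3 and rose to 5 without BSMC replicate 2. Of 12 tested IGFBP-related genes, 3 were higher and 2 lower in PASMC than in BSMC, 3 and 3 in total_SMC than in BSMC, and 2 and 0 in total_SMC than in PASMC (medians -0.148, -0.124 and 0.0703), beside the same shares of all genes. Esm1 had means of 34, 199 and 367, with 64, 38 and 0 in the BSMC libraries. It was 4.74 higher in total_SMC than in BSMC (SE 1.14, limma adjusted p = 0.0068). Igsf10, an immunoglobulin superfamily gene, had means of 195, 588 and 2435, and was 3.70 higher in total_SMC than in BSMC (limma adjusted p = 1.35e-06). The count of 5 in PASMC against BSMC fell to 1 without any 1 PASMC library, to 3 without replicate 1 or 3 of BSMC or of total_SMC, and to 2 without total_SMC replicate 2.

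Of the other IGF family genes, 3 were tested, and beside Insr these were Insrr and Igfals, named after their values were seen. Igfals, which encodes the acid-labile subunit of the circulating IGF complex, had counts of 0, 3 and 1 in BSMC, 0, 0 and 3 in PASMC, and 11, 23 and 15 in total_SMC. Insrr, an insulin receptor-related receptor, had 0, 1 and 0 in BSMC, 13, 0 and 8 in PASMC, and 24, 29 and 12 in total_SMC. Igfals reached the filter value of 10 only in the total_SMC libraries, and Insrr only there and in PASMC replicate 1. Any call of these genes in total_SMC therefore does not stand apart from the filter that let them be tested. None of the 3 was called by limma in PASMC against BSMC or had an unadjusted p under 0.05, and 1 was called without PASMC replicate 2. In total_SMC against BSMC 2 were called higher and 1 lower, beside 23.7% and 18.2% of all tested genes. Of these 3 calls, 1 was left without total_SMC replicate 1 or 3. In total_SMC against PASMC 1 was called higher and 1 lower, beside 9.39% and 6.83% of all tested genes. No call was left without the PASMC libraries 1 or 2 or the total_SMC libraries 1 or 3, and 1 without BSMC replicate 1, PASMC replicate 3 or total_SMC replicate 2.

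Marker lists moved in both directions beside the total_SMC differences in Igf1, Igf1r and Igf2r. Of all tested genes, 23.7% were called higher and 18.2% lower in total_SMC than in BSMC, and 9.39% and 6.83% than in PASMC. The 15 fibroblast markers summed to 4773 to 5627 CPM in BSMC, 5798 to 6491 in PASMC and 7573 to 8395 in total_SMC, none was at 0 in a whole group, and 9 of 15 were higher and 0 lower in total_SMC than in BSMC. Against PASMC, 6 were higher and 1 lower. The 9 mesothelial markers summed to 179 to 285 CPM in BSMC, 122 to 133 in PASMC and 796 to 980 in total_SMC, and 9 of 9 were higher in total_SMC than in PASMC, where Muc16 and Bnc1 were at 0 in every library. Of 15 endothelial markers, 9 were higher and 0 lower in total_SMC than in PASMC, with sums of 1214 to 1496 CPM in PASMC and 1914 to 2336 in total_SMC. Other lists had lower sums in total_SMC: the 8 smooth muscle markers summed to 2717 to 3088 CPM there against 3581 to 4284 in BSMC and 3297 to 3710 in PASMC, with 5 lower than in BSMC, 3 lower than in PASMC and 0 higher than in either. The Schwann and neuronal markers summed to 58.0 to 67.7 CPM in total_SMC, 239.7 to 277.5 in BSMC and 244.9 to 320.3 in PASMC. Of the 4 tested, 1 was called lower and 0 higher in total_SMC in each comparison. The 14 epithelial markers summed to 515 to 670.4 CPM in total_SMC, 697 to 909 in BSMC and 875 to 999.7 in PASMC. Gene by gene they were mixed: 3 were higher and 5 lower in total_SMC than in BSMC, and 3 higher and 6 lower than in PASMC. The part of these cells in the Igf1, Igf1r and Igf2r differences was not tested. Igfbp5 and Igfbp2 differed between PASMC and BSMC beside 10 of 15 fibroblast markers that were higher and 16 of 17 leukocyte markers that were lower in PASMC, and that too was not tested. Of all tested genes, 13.2% were higher and 8.88% lower in PASMC than in BSMC.

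The genes whose profile over the 9 libraries was most like each member were listed by Pearson's r of log2 values, as a description, since the 9 points fall into 3 groups and share libraries. For Igf1 they were Frmd5 (0.992), Srpx (0.990) and Smad2 (0.989). For Igf1r they were Atcayos (0.985), Napsa (0.981) and Fabp3 (0.981), and for Igf2r Hebp2 (0.984), Cdon (0.977) and Sorcs2 (0.968). Igfbp5 was most like Gli2 (0.990), Man2a2 (0.988) and Kidins220 (0.988), and Igfbp3 most like Furin (0.964), Adamts17 (0.954) and Cpm (0.954). Igfbp2 was most like Mblac2 (0.940), Fgd2 (0.939) and Slc25a33 (0.935), and Igfbp6 most like Bpifa2 (0.980), Pcolce (0.978) and Syp (0.965). Igf2, at its low counts, was most like Fbrs (0.959), Srsf3 (0.958) and Tmem252 (0.958).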

How the data were processed

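The submitters' processing notes name the build mm39 and, with no role for each, DESeq2 1.36.0, featureCounts 2.0.4, Picard 3.1.1, STAR 2.7.11a and Trimmomatic 0.39. The deposited values, recorded as unit score, were read from the values themselves as read counts normalized by the authors with 1 factor per library and rounded. Because they are not raw counts, limma was used in place of a count test. The factor of each library was recovered from whole numbers that never occur or occur too often, and a value divided by it is called implied reads. Genes at 10 or more in at least 3 libraries were kept, and log2(value + 1) entered 1 limma fit (3.58.1, R 4.3.3; 3 group means, trend and robust options), with Benjamini-Hochberg adjustment over 15647 genes. Levels per kb used the union of exons of GENCODE gene models. Replicates were checked for copies, and their chi-square per gene was 6.05 or more. Depth limits rare genes such as Igf2.

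The members and lists were chosen with earlier results of these data known. Named genes are all members, and per list and comparison up to 4 called genes in each direction with the largest change, provided the higher group averaged 100 or more; some meeting this are not reported here. For members with a call, the 3 genes of highest correlation are named. Insrr and Igfals, outside that rule, and the genes of the library checks are named with their values known. Alternatives were 19 per comparison: another pseudocount or filter, 4 other scalings, fewer groups, a replicate block, array weights, and each library left out. Tables and plots used Python 3.11.15, pandas 2.3.3 and matplotlib 3.10.9.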

Additional observations from a re-analysis of the deposited data

How the results depend on the processing

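Over the 10 members and up to 19 alternatives, 166, 172 and 170 member values kept direction and side of the threshold between PASMC and BSMC, total_SMC and PASMC, and total_SMC and BSMC. Igfbp3 and Igfbp5 against BSMC in PASMC, Igf1, Igf1r and Igfbp3 between total_SMC and PASMC, and Igf1, Igf1r, Igf2r, Igfbp2 and Igfbp5 between total_SMC and BSMC were called under all 19. Beside the libraries named in the report, the Igfbp2 call between PASMC and BSMC was lost with implied reads (limma adjusted p = 0.234), only the 2 groups compared (0.0814) and array weights (0.0893). The Igf2 call in total_SMC against BSMC was lost with cyclic loess (0.0650), implied reads (0.0580) and only the 2 groups (0.0705), and the Igfbp6 call with scaling to the library total (0.0516) and cyclic loess (0.0560). Calls were gained for Igf2r between PASMC and BSMC with implied reads (0.0498), and between total_SMC and PASMC for Igfbp6 with implied reads (0.0474), only the 2 groups (0.00418) and array weights (0.00074) and for Igfbp4 with array weights (0.0387). Igfbp7 was called between total_SMC and BSMC with scaling to the library total (0.0499) and quantile normalization (0.0461). The cause was not tested in any of these.

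The sign turned only for differences that were not called. For PASMC against BSMC, Igf2 became 0.0593 under quantile normalization, 0.21 under cyclic loess, 0.0376 with implied reads and 0.29 without BSMC replicate 1 (-0.45 to 0.29 with 1 library left out). Igf1r became 0.0877 and Igfbp4 0.0631 with implied reads, and Igfbp6 -0.0048 under cyclic loess and -0.12 without BSMC replicate 2 (-0.12 to 0.293 with 1 library left out). For total_SMC against PASMC, Igfbp5 became -0.0089 scaled to the library total and -0.0268 under quantile normalization. Igfbp7 became -0.0296 and -0.0290 under these, -0.015 without PASMC replicate 2 and -0.0280 without total_SMC replicate 3 (-0.0280 to 0.07095 with 1 library left out). For total_SMC against BSMC, Igfbp4 became -0.12 scaled to the library total, -0.13 under quantile normalization, -0.0964 under cyclic loess, -0.0897 without BSMC replicate 2 and -0.0277 without total_SMC replicate 3 (-0.0897 to 0.141 with 1 library left out).

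Members called in total_SMC against PASMC rose from 4 to 7 with array weights. Among all genes, the 3451 called between PASMC and BSMC became 1926 with only the 2 groups compared and 1701 to 6364 with 1 library left out. The 2539 between total_SMC and PASMC became 4345 with only the 2 groups and 5082 with array weights, and 1597 to 3205 with 1 library left out. The 6553 between total_SMC and BSMC became 4254 to 8056 with 1 library left out. Implied reads moved the median of all genes to 0.258 (PASMC against BSMC) and 0.224 (total_SMC against BSMC), and the library total moved it to -0.11 in the latter. The share of higher among called genes, 59.8% and 56.6% in those comparisons, became 46.3% and 42.8% with the library total, 49.3% and 44.3% under quantile normalization, and 72.6% and 69.3% with implied reads.

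Replicate numbers did not pair the libraries: correlations of same-numbered deviations were -0.124 to 0.136, and not every library matched its own number best. With the replicate block, 3287, 2286 and 6350 genes were called, the Igfbp2 call between PASMC and BSMC (limma adjusted p = 0.0523) and the Igf2 call between total_SMC and BSMC (0.0529) were lost, and Igfbp6 was called between total_SMC and PASMC (0.0288); no other member call changed. The Insr call between total_SMC and PASMC was lost as well (0.0809).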
